A study of Homo sapiens with 60 samples.

Results

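The ethanol extract of Samul-tang was compared at its high dose of 500 µg/mL with its low dose of 20 µg/mL in SW1783 cells, an established human astrocytoma line, after 24 h. Libraries were assigned to the doses by their labels, and the comparison was picked with earlier results of these data known. The comparison used 6 of the 60 RNA-seq libraries of the series, 3 per dose, and 3 further libraries at the medium dose of 100 µg/mL served to place the intermediate dose. Samul-tang is a traditional formula of prepared rehmannia, angelica, cnidium and peony roots, and the extracts were made with 70% ethanol. Sagunja-tang, a formula of other herbs, and Palmul-tang, whose recipe unites both, were tested at the same 3 doses with 3 libraries each and served for comparison. No vehicle library entered the dose comparison. All 9 Samul-tang libraries and those of Sagunja-tang share the first number 14 in their label code, a code of unstated meaning, Palmul-tang has 15 and the 3 vehicle libraries have a code of their own. An effect of the extract and one of the code cannot be told apart wherever vehicle values stand beside Samul-tang, or Palmul-tang beside Samul-tang. The vehicle was DMSO, at 0.1% by the sample labels and at 2% by the text of the series. Nothing in the labels tells if the 3 libraries of a dose came from different cultures. The p-values rest on a spread estimated jointly over 57 libraries of 19 groups, not on the compared libraries alone. That spread between libraries of a group may be technical.

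Plant extracts reach the transcriptome through several sensor pathways. The factor NRF2 is held low by KEAP1 until electrophiles or oxidants free it, and it then switches on genes of glutathione synthesis, quinone reduction, heme breakdown and iron storage. The aryl hydrocarbon receptor (AhR) binds planar aromatic ligands, pairs with ARNT and induces CYP1 enzymes and its own repressors. BMP ligands signal through SMAD proteins to the ID genes, whose products block differentiation factors. SREBP factors drive cholesterol and fatty acid synthesis when membrane sterol is low, and PPAR factors respond to fatty acids with genes of fat oxidation and storage.

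Total expected counts of the 9 Samul-tang libraries ranged from 24444849 to 32782161. Values below are CPM, expected counts relative to the TMM-scaled library total, and log2 differences ± SE from edgeR over 17676 genes tested. A gene was called at a Benjamini-Hochberg adjusted p below 0.05. Of 14 astrocyte and glioma markers, 7 had a median under 1 CPM in these libraries, with GFAP, S100B, AQP4, ALDH1L1, SOX2 and FABP7 each at 0.28 CPM or less in every library, whereas VIM (median 4180 CPM), CD44 (2710 CPM) and GJA1 (245 CPM) were abundant. SOX9 (median 62.6 CPM) and SLC1A3 (25.2 CPM), 2 further astrocyte genes of the list, were expressed. The labelled astrocytoma thus lacked several defining astrocyte genes and had others. The summed astrocyte and glioma markers were 7150 to 7290 CPM at the low and 6830 to 7020 CPM at the high dose. Leukocyte markers summed to 12.9 to 15.0 CPM at the low and 10.4 to 11.7 CPM at the high dose, with CD3E and TYROBP at 0 in all 9 libraries. PTPRC, at 8.17 to 11.8 CPM, and CSF1R, at 1.93 to 3 CPM, were expressed and made up most of the sum. CSF1R was called lower at the high dose (log2 -0.51, edgeR adjusted p = 0.0341), a call lost in 8 of 13 settings. Fewer cells of a kind and less RNA per cell cannot be told apart in such bulk libraries.

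From the low to the high dose 249 of 17676 genes were called, 1.41% of those tested, with 132 higher (0.747%) and 117 lower (0.662%), and 1576 (8.92%) had an unadjusted p below 0.05. With library totals alone the split was 147 higher and 95 lower. The changes were mostly small. Of the called genes, 44 were at least 1.5-fold higher and 23 at least 1.5-fold lower, and 18 changed by at least 2-fold (0.102% of genes tested). Among called genes of at least 5 CPM the 12 largest rises included HMOX1, SLC7A11, ANGPTL4, IGFBP1 and GDF15, and the 12 largest falls ID3, ID2, ATOH8, SREBF1 and SCD. The high and low libraries did not overlap in any of the 249 genes, against 3902 of all genes tested (22.1%). The genes were called on these same libraries, so this follows largely from the call and is no separate support. The number called moved with the libraries in the fit. It was 1104 (510 higher, 594 lower, all 249 among them) without 2 libraries of Astragali Radix low dose that stand apart, and 822 (358 higher, 464 lower) in the 9 Samul-tang libraries alone. It was 157 without high replicate 2 and 164 without low replicate 1.

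ANGPTL4, a secreted inhibitor of lipoprotein lipase (ENSG00000167772, GRCh38 chromosome 19, 8363289 to 8374373), measured 10.2, 12.4 and 12.2 CPM at the low dose, 17.1, 14.2 and 14.8 CPM at the medium dose and 34.7, 33.8 and 32.1 CPM at the high dose. The high libraries lay above all others and the medium libraries above the low ones. The rise from low to high was log2 1.53 ± 0.14 (edgeR quasi-likelihood test, adjusted p = 7.78e-11). IGFBP1, a secreted protein that binds insulin-like growth factors (ENSG00000146678, chromosome 7, 45888357 to 45893668), measured 20.2, 20.0 and 21.8 CPM at low, 32.0, 28.1 and 31.6 CPM at medium and 56.0, 56.5 and 54.2 CPM at high dose. The 3 doses formed separate steps, and the rise was log2 1.43 ± 0.09 (adjusted p = 1.88e-15). IGFBP1 was the only gene called between medium and low dose (log2 0.57, adjusted p = 0.00482).

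HMOX1, the inducible heme oxygenase (ENSG00000100292, chromosome 22, 35380361 to 35394214), measured 60.0, 62.7 and 69.3 CPM at low, 82.0, 76.6 and 83.0 CPM at medium and 193, 178 and 170 CPM at high dose. Most of its rise of 2.82-fold fell between 100 and 500 µg/mL, and no libraries of different doses overlapped (adjusted p = 7.31e-16). SLC7A11, the cystine importer that feeds glutathione synthesis (ENSG00000151012, chromosome 4, 138164097 to 138242349), measured 114, 114 and 127 CPM at low, 136, 144 and 141 CPM at medium and 259, 282 and 238 CPM at high dose. Its rise was log2 1.14 ± 0.13 (adjusted p = 5.09e-08), again with 3 separate groups of libraries.

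CYP1B1, an AhR-induced oxidase of aromatic compounds and steroids (ENSG00000138061, chromosome 2, 38066973 to 38109902), measured 143, 138 and 147 CPM at low, 148, 152 and 155 CPM at medium and 185, 199 and 184 CPM at high dose. The high libraries stood apart from the rest, while low and medium were close neighbours. The change was modest in size, log2 0.41 ± 0.06 (adjusted p = 4.95e-06). ID3, a dominant negative partner of helix-loop-helix factors (ENSG00000117318, chromosome 1, 23557918 to 23559794), went the other way with 176, 185 and 161 CPM at low, 145, 141 and 151 CPM at medium and 97.96, 90.1 and 98.6 CPM at high dose. All 3 doses were separate, and the high dose had 0.549 of the low level (log2 -0.86 ± 0.10, adjusted p = 8.54e-08).

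**Figure D1:**
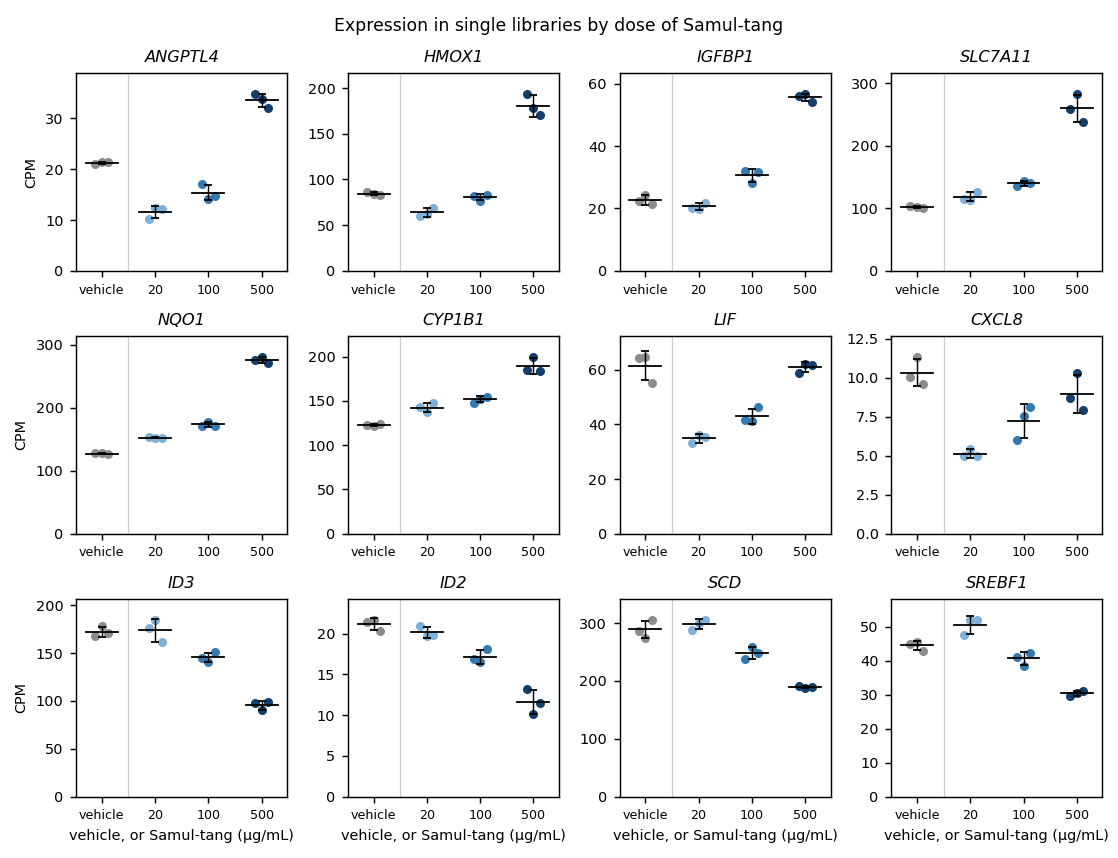
CPM of 12 genes in each library (points) with the mean and SD of the 3 libraries (lines), for the vehicle and for Samul-tang at 20, 100 and 500 µg/mL, on linear axes that start at 0. HMOX1 and SLC7A11 step up mainly at 500 µg/mL, IGFBP1 already at 100 µg/mL, and ID3, ID2, SCD and SREBF1 step down with dose.

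NRF2 targets formed the largest group of rises. Of 34 antioxidant targets tested 21 were called higher and 0 lower, against 0.747% and 0.662% of all genes tested. These shares are the reference for the lists below too. The median change was log2 0.36, against -0.0013 over all genes tested. The list median lay at 0.359, 0.371 and 0.379 above the mean of the low libraries in the 3 high libraries, at 0.051 to 0.073 in the medium libraries and at -0.011 to 0.013 in the low ones. The high libraries thus stood apart as a block and the medium ones lay close to the low dose. Of the list only GPX2 did not pass the filter on low counts, and the lowest value of those tested was TRIM16L at log2 0.09. All 34 values were above 0, and 31 had high libraries above all low ones, against 10.6% of all genes tested.

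Within this list, several genes of quinone and carbonyl reduction rose. NQO1, a quinone reductase, measured 154, 152 and 152 CPM at low, 171, 178 and 171 CPM at medium and 276, 280 and 272 CPM at high dose. Its groups were tight and separate (log2 0.85 ± 0.06, adjusted p = 8.15e-14). AKR1C1, AKR1C2 and AKR1C3, aldo-keto reductases, rose by log2 0.87, 0.75 and 0.74, and AKR1B10 by 0.62. The similar AKR1C genes share reads, so the split between those 3 is uncertain. The iron storage genes FTL (log2 0.70 ± 0.09) and FTH1 (0.61 ± 0.08) rose, both having processed pseudogenes with similar sequence.

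Several glutathione and thioredoxin genes rose as well. GCLM and GCLC, the subunits of the enzyme that commits cysteine to glutathione, rose by log2 0.50 ± 0.09 and 0.37 ± 0.07. TXNRD1, thioredoxin reductase, measured 286, 305 and 299 CPM at low and 434, 444 and 428 CPM at high dose (log2 0.55 ± 0.065, adjusted p = 8.54e-08). SRXN1, which repairs peroxiredoxins, rose by log2 0.36 ± 0.05, and PGD, an NADPH-forming enzyme, by 0.29. KEAP1 itself (log2 0.11) and GSR, glutathione reductase (0.15), were not called. ABCC2, an exporter of glutathione conjugates, rose by log2 1.18 ± 0.21 from a mean of 0.922 to 2.10 CPM.

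The AhR list held 7 called rises and 0 called falls among 11 genes tested, with a median of log2 0.41. CYP1A2 and LRRC25 did not pass the filter. ALDH3A1, an aldehyde dehydrogenase, had the largest value at a low level, from 0.321, 0.179 and 0.240 CPM at low to 1.14, 1.21 and 1.52 CPM at high dose (log2 2.40 ± 0.33, adjusted p = 2.72e-06). TIPARP, an ADP-ribosyltransferase that represses AhR, measured 51.6, 51.5 and 53.7 CPM at low, 59.4, 62.3 and 60.0 CPM at medium and 74.4, 76.8 and 77.4 CPM at high dose. Its 3 doses did not overlap (log2 0.54 ± 0.11, adjusted p = 0.00272). CYP1A1, the enzyme most used to report AhR activity, reached only 1.71, 2.00 and 1.55 CPM at high dose from 0.962, 1.13 and 1.00 CPM at low dose (log2 0.75 ± 0.20, adjusted p = 0.0476). That call was lost in 8 of the 13 settings that tested it, with adjusted p up to 0.296.

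The repressor AHRR measured 36.2 to 39.0 CPM at low and 46.1 to 47.8 CPM at high dose and was not called (log2 0.33, adjusted p = 0.249). Without both Astragali Radix libraries it was. The receptor AHR (log2 0.12) and its partner ARNT (-0.08) were not called. STC2, a secreted glycoprotein, and SLC7A5, an amino acid transporter, rose by log2 0.46 ± 0.08 and 0.30 ± 0.05. NQO1, STC2 and SLC7A5 also stand in the NRF2 or ATF4 lists, so 4 of the 7 called genes (ALDH3A1, TIPARP, CYP1A1 and CYP1B1) belong to the AhR list alone.

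The promoters of these genes show where the letters known from such response elements lie. Below are the 250 bases before the start site of 2 AhR genes and 2 NRF2 genes that rose and of 1 BMP target that fell, from RefSeq on GRCh38.p14, written 5′ to 3′ on the strand of the gene. Capitals mark GCGTG (the core bound by AhR and ARNT) in TIPARP and CYP1A1, TGACNNNGC (the antioxidant response element core) in GCLM and TXNRD1, and GGCGCC (an element of SMAD proteins) in BAMBI, each on either strand. Every promoter printed holds its motif, which others of the same lists lack. The same 250 bases of ID3, ID2 and ATOH8 hold no GGCGCC, and those of NQO1 and AKR1C1 no TGACNNNGC.
TIPARP, chr3:156674340-156674589, plus strand: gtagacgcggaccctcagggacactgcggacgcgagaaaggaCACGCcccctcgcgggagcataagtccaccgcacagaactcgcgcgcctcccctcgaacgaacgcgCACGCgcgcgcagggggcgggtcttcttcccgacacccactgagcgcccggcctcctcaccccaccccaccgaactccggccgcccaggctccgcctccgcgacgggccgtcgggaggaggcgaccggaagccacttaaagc
CYP1A1, chr15:74725529-74725778, minus strand: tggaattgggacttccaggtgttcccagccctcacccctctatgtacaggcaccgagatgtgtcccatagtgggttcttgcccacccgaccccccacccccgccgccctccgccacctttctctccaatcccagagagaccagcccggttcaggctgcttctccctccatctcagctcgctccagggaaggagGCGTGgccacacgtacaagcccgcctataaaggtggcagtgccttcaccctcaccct
GCLM, chr1:93909431-93909680, minus strand: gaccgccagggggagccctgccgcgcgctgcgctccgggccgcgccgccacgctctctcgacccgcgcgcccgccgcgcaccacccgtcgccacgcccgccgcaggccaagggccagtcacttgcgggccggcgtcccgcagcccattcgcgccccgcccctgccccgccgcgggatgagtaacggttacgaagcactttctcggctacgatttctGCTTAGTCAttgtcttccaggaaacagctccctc
TXNRD1, chr12:104215529-104215778, plus strand: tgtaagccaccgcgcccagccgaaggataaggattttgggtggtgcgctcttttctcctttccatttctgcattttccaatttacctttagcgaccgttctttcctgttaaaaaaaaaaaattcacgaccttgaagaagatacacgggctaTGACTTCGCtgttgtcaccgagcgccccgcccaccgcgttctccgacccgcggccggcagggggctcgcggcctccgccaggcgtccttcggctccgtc
BAMBI, chr10:28677271-28677520, plus strand: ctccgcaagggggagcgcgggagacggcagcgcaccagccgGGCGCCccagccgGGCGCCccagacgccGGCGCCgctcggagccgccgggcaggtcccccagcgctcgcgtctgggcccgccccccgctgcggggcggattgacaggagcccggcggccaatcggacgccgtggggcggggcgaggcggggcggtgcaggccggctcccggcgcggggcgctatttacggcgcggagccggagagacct

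Over the window from 250 bases before to 50 after the start, GCGTG stood in the promoters of all 5 called AhR genes with an entry, of 7, and in 49.6% of the 12040 promoters of genes tested. Among the called NRF2 targets 3 of 15 promoters held TGACNNNGC (20.0%), against 15.1% of promoters of genes tested. Among the called BMP targets 1 of 6 held GGCGCC, against 29.8%. Over all genes called higher, GCGTG stood in 48.4% and TGACNNNGC in 16.1% of 93 promoters, and over those called lower in 47.7% and 10.2% of 88. A match in so short a window is a description of the letters and not a site in use. The motifs were searched on both strands.

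The lipid genes were taken by role. Of 20 tested genes of PPAR targets, lipid droplets and fatty acid oxidation 5 rose and 0 fell (median log2 0.068). Besides ANGPTL4 these were PLIN2, the coat protein of lipid droplets, from 51.8, 50.5 and 46.7 to 93.7, 89.2 and 87.3 CPM (log2 0.86 ± 0.06), CPT1A, which admits fatty acids to mitochondria (0.53 ± 0.08), PDK4, which spares glucose (1.73 ± 0.32, from a mean under 1 CPM), and ACAA2, a thiolase (0.29 ± 0.07). PPARA (log2 0.13), PPARD (-0.10) and PPARG (-0.06) were not called, and neither were HADHA and HADHB of the oxidation spiral.

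In sterol and fatty acid synthesis the called genes were all lower. Of 25 cholesterol synthesis genes 6 were called lower and 0 higher, with 24 values below 0 and a median of log2 -0.19. DHCR7, a reductase of the last sterol steps, measured 43.2, 40.9 and 42.3 CPM at low, 36.8, 39.1 and 37.9 CPM at medium and 32.7, 32.6 and 34.3 CPM at high dose. The doses did not overlap (log2 -0.34 ± 0.08, adjusted p = 0.00613). INSIG1, which retains SREBP in the endoplasmic reticulum, fell by 0.25 ± 0.06 on the log2 scale. The calls of DHCR7 and INSIG1 were lost in 2 and 7 of 14 settings. Without both Astragali Radix libraries 15 of the 25 genes were called lower, in a fit that called 594 of all 18357 genes lower. The count was 2 without high replicate 2, and 3 without high replicate 1, high replicate 3, low replicate 1 or low replicate 2 and with no TMM scaling.

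Of 13 fatty acid synthesis genes 4 were called lower and 0 higher (median log2 -0.18). SREBF1, which encodes SREBP1, measured 47.6, 52.0 and 52.0 CPM at low, 41.1, 38.6 and 42.4 CPM at medium and 29.5, 30.4 and 31.2 CPM at high dose. All 3 doses were separate (log2 -0.74 ± 0.12, adjusted p = 3.07e-05). SCD, the stearoyl-CoA desaturase, went from 289, 300 and 305 to 192, 188 and 190 CPM (log2 -0.65 ± 0.07, adjusted p = 3.28e-09). FADS2, a polyunsaturated fatty acid desaturase, fell by 0.35 ± 0.07 and MID1IP1, an activator of acetyl-CoA carboxylase, by 0.36 ± 0.07 on the log2 scale. FASN, fatty acid synthase, was not called (log2 -0.29).

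In the list of BMP and SMAD targets, 6 of 17 tested genes were called lower and 1 higher, and the median was log2 -0.38. ID2 measured 20.9, 19.8 and 19.8 CPM at low, 16.9, 16.5 and 18.1 CPM at medium and 13.2, 10.1 and 11.5 CPM at high dose (log2 -0.79 ± 0.11, adjusted p = 4.36e-06). ID4, at a low level, went from 2.81, 3.04 and 3.00 to 1.43, 1.48 and 1.65 CPM (log2 -0.96 ± 0.17, adjusted p = 0.000222). ATOH8, a helix-loop-helix factor induced by BMP, fell by 0.79 ± 0.14 and SMAD6, the inhibitory SMAD of this branch, by 0.67 ± 0.15 on the log2 scale. All of these had separate low and high libraries. ID1, the most abundant ID gene, measured 247, 262 and 238 CPM at low and 194, 176 and 204 CPM at high dose and was not called (log2 -0.38 ± 0.15, adjusted p = 0.312), although it was without both Astragali Radix libraries.

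GREM1, a secreted BMP antagonist, was the 1 gene of the list that rose, from 19.8, 16.2 and 17.8 to 24.7, 26.2 and 25.3 CPM (log2 0.50 ± 0.08, adjusted p = 5.02e-05). Among 13 ligands, receptors and signalling SMADs only BMP4 was called, lower by log2 -0.35 ± 0.09, and this call was lost in 5 of 14 settings. The receptors BMPR1A (log2 -0.01) and BMPR2 (-0.02) and the carriers SMAD1 (0.05) and SMAD5 (0.02) were not called. TGF-beta targets had 2 of 11 called lower, among them CCN2, a matrix growth factor (log2 -0.38 ± 0.08), which stayed near its low dose level at 100 µg/mL. In the vehicle all 11 TGF-beta targets lay above both doses.

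**Figure D2:**
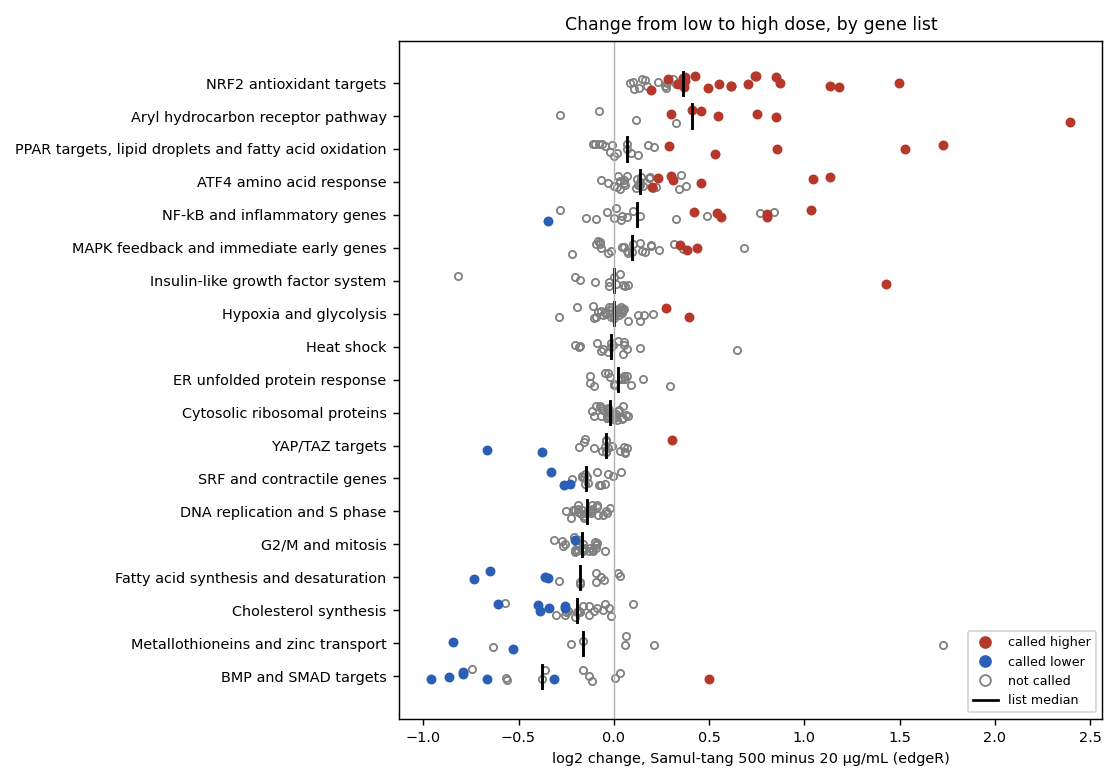
Log2 change from 20 to 500 µg/mL of Samul-tang for each tested member of 19 gene lists (points), filled red where called higher, filled blue where called lower and open where not called, with the list median as a black bar. NRF2 targets all lie above 0 and cholesterol synthesis genes nearly all below 0, while ribosomal protein genes cluster at 0.

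In the insulin-like growth factor list IGFBP1 was the 1 called member of 13. IGFBP7, the most abundant, measured 1761, 1573 and 1682 CPM at low and 1716, 1644 and 1698 CPM at high dose. IGFBP4 and IGFBP5 were likewise uncalled (log2 0.06 and 0.03), and IGFBP3 was not called at log2 -0.18 ± 0.05 (adjusted p = 0.0923), though DESeq2 called it. IGF1R, INSR, IRS1 and IRS2 lay between log2 -0.03 and 0.07.

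Some secreted cytokines rose. Of 22 tested NF-kB and inflammatory genes 6 were called higher and 1 lower (median log2 0.12). LIF, a cytokine of the interleukin-6 family, measured 33.1, 36.3 and 35.5 CPM at low, 41.6, 41.1 and 46.2 CPM at medium and 59.0, 62.2 and 61.7 CPM at high dose. Its doses were separate (log2 0.80 ± 0.07, adjusted p = 3.53e-11), and its vehicle libraries, at 64.3, 64.6 and 55.3 CPM, overlapped with the high dose. CXCL8, a neutrophil chemokine, went from 4.97, 5.46 and 4.96 to 8.71, 10.3 and 7.92 CPM (log2 0.80 ± 0.15, adjusted p = 0.00102), with medium libraries in between that overlapped the high ones. The vehicle mean of CXCL8, 10.3 CPM, lay above both dose means. For the 22 genes of the list the vehicle mean lay above both dose means in 13, between them in 5 and below both in 4. IL1B, IL6, IL1A and MMP1 were the other called rises and TNFAIP2 the fall, and the call of IL1B was lost without low replicate 1. The list then had 3 called higher and 1 lower, and it had 4 higher and 0 lower without high replicate 2 or high replicate 3. NFKBIA (log2 0.01), TNFAIP3 (0.00) and NFKB1 (0.04), the feedback genes of NF-kB, were not called.

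The amino acid response held 7 called rises among 33 genes (median log2 0.14) and 0 falls. GDF15, a stress cytokine, went from 4.77, 3.64 and 3.64 CPM to 7.92, 8.11 and 8.72 CPM (log2 1.05 ± 0.15), and SLC7A11, STC2, SLC7A5 and SLC3A2, the partner chain of both transporters, also rose. The classic markers of this response moved less. ASNS, asparagine synthetase, rose by log2 0.20 ± 0.05, a call lost in 5 of 14 settings, while TRIB3, a pseudokinase (0.18 ± 0.07), and DDIT3, a death-promoting factor (0.05 ± 0.09), were not called. Of 18 ER unfolded protein genes and 17 heat shock genes edgeR called 0, with 3 and 0 at an unadjusted p below 0.05, and DESeq2 also called 0. Without both Astragali Radix libraries edgeR called 4 ER genes and 0 heat shock genes, and in the Samul-tang libraries alone 3 and 2. Over all genes the former fit called 1104 of 18357 and the latter 822 of 16482.

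Some metallothionein and contractile genes fell. Of 9 tested genes of metallothioneins and zinc transport 2 were called lower and 0 higher, with 4 values above 0. MT1E, a metal-binding protein, went from 21.4, 24.3 and 25.3 to 12.7, 12.4 and 14.4 CPM (log2 -0.85 ± 0.10, adjusted p = 9.21e-08), and MT1X fell by 0.53 ± 0.10 on the log2 scale. Metallothionein genes share reads, so their split is uncertain. Of 18 SRF and contractile genes 3 were called lower, ACTA2 (log2 -0.33 ± 0.06), ACTG1 (-0.23 ± 0.05) and TPM1 (-0.26 ± 0.06). ANKRD1, a YAP target of stretched cells, went from 10.3, 10.3 and 9.72 to 6.52, 6.11 and 6.49 CPM (log2 -0.66 ± 0.10). Of 20 YAP/TAZ targets 2 were called lower and 1 higher. The calls of ACTG1 and TPM1 were lost in 3 and 5 of 14 settings, and without high replicate 2 or low replicate 2 only 1 of the 18 SRF and contractile genes was called.

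Proliferation genes had small values below 0, few of them called. All 30 G2/M and mitosis genes had values below 0 (median log2 -0.16, range -0.31 to -0.05), and in 29 the high libraries lay below all low ones, against 11.4% of all genes tested. Only PRC1, a spindle midzone protein, was called, from 147, 147 and 147 CPM to 127, 126 and 131 CPM (log2 -0.20 ± 0.05, adjusted p = 0.0362), and this call was lost in 8 of 14 settings. DESeq2 called 5 and the fit without both Astragali Radix libraries 20. Of 24 S phase genes edgeR called 0 (8 lower at an unadjusted p below 0.05, 1 by DESeq2), with a median of log2 -0.14 and 11 called lower without both Astragali Radix libraries. In that fit 1104 of all genes were called, against 249.

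**Figure D3:**
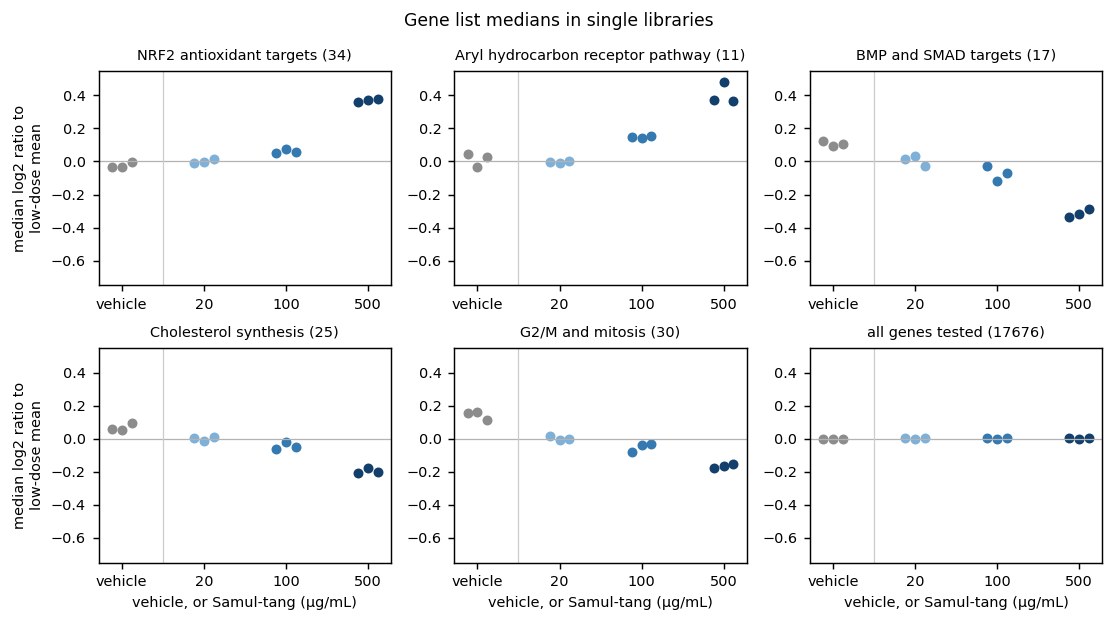
Median over the members of 5 gene lists, and of all 17676 genes tested, of the log2 ratio of each library to the mean of the 3 low libraries (pseudocount 0.05 CPM), for the vehicle and the 3 doses of Samul-tang, with the number of members in brackets. In each list the 3 high libraries lie together, above 0.35 for NRF2 and AhR genes and at about -0.3 for BMP targets, and all genes tested lie at 0.

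The medium dose resembled the low dose more than the high dose. Between medium and low 1 gene was called (0.00566%), IGFBP1, with 406 (2.3%) at an unadjusted p below 0.05, and DESeq2 also called 1. Between high and medium 97 were called (0.549%), 60 higher (0.339%) and 37 lower (0.209%), with 5.84% at an unadjusted p below 0.05. Without TMM scaling the latter split was 74 to 25. These comparisons share libraries with each other. The call of IGFBP1 was lost when medium replicate 1, medium replicate 3, low replicate 1 or low replicate 2 was left out. Of the 249 genes called between high and low, the medium mean lay between the other means in 237 (95.2%), against 43.5% of all genes tested. In 189 all 3 medium libraries did. The 249 genes were called on a gap between the same low and high means, and a wide gap holds more medium values. The shares are therefore not like for like, and the excess is no test of a graded dose response.

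On a log2 scale that puts the low mean at 0 and the high mean at 1, the median position of the medium dose over the 249 genes was 0.296, with quartiles of 0.184 and 0.443. The dose of 100 µg/mL is the midpoint of 20 and 500 µg/mL on a log scale. Only 43 of the 249 genes had passed the midpoint. CXCL8 (0.61), SELENOW, a selenoprotein (0.67), F3, tissue factor (0.65), and EGR1, an immediate early factor (0.70), were among those past it. NQO1 and SLC7A11 (both 0.22), GDF15 (0.12), MT1E (0.06) and CCN2 (0.03) had moved little. IGFBP1 stood at 0.40.

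**Figure D4:**
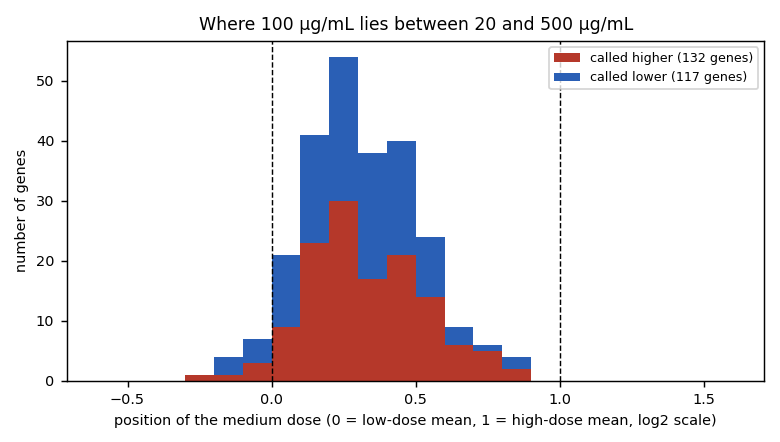
Histogram of the position of the medium dose for the 249 genes called between 20 and 500 µg/mL, where 0 is the low mean and 1 the high mean on a log2 scale, stacked for 132 genes called higher (red) and 117 called lower (blue). Most genes lie between 0 and 0.5, with a median of 0.296.

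The vehicle libraries, which carry another label code, give a further point of reference without a test. For 65 of the 132 genes that rose, the vehicle mean lay below both dose means, for 59 between them and for 8 above both. For 72 of the 117 genes that fell it lay above both, for 42 between and for 3 below. HMOX1, at 84.3 ± 1.70 CPM (SD, n = 3), and ANGPTL4, at 21.3 ± 0.194 CPM, thus had vehicle levels above the low dose, while NQO1, at 127 ± 0.856 CPM, and SLC7A11, at 102 ± 1.87 CPM, were lowest in the vehicle. ID3 had 172 ± 5.34 CPM in the vehicle and 174 ± 11.9 CPM at the low dose.

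The dose change of Samul-tang was set against that of Sagunja-tang with a test of the difference, over libraries that do not overlap and carry the same label code. It differed in 218 genes (1.23%), 104 with the larger value in Samul-tang (0.588%) and 114 with the smaller (0.645%), with 8.96% at an unadjusted p below 0.05. In 183 of these the changes had opposite signs, counted at any size, so values near 0 in 1 formula are included. Of the 218 genes 77 were also called from the low to the high dose in Samul-tang. Of the 34 NRF2 targets 2 differed, SQSTM1, an autophagy adaptor, and TRIM16L (log2 0.09 against 0.58). NQO1 changed by log2 0.85 in Samul-tang and 0.81 in Sagunja-tang and SLC7A11 by 1.14 and 0.84. The change of HMOX1 was lower in Samul-tang by log2 -0.22 ± 0.13, and none of these 3 differences was called. The list medians were 0.36 and 0.40.

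Lipid synthesis genes differed. SCD changed by log2 -0.65 in Samul-tang and 0.21 in Sagunja-tang, a difference of -0.86 ± 0.09 (adjusted p = 5.05e-08). DHCR7, INSIG1, FADS2 and MID1IP1 likewise had negative values in Samul-tang and values of 0.28 to 0.35 in Sagunja-tang. In all, 7 of 25 cholesterol synthesis genes and 5 of 13 fatty acid synthesis genes differed. The list medians were log2 -0.19 and 0.091 for cholesterol synthesis.

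IGFBP1 differed in the other direction, with log2 1.43 against 0.21 (difference 1.22 ± 0.13, adjusted p = 3.08e-08). CXCL8 changed by 0.80 against -0.25, LIF by 0.80 against -0.16, ANGPTL4 by 1.53 against 0.54 and F3 by 0.30 against -0.47. The rise of F3 lost its call in 4 of 14 settings. NPTX1, a neuronal pentraxin, rose from 4.85, 5.37 and 5.20 to 11.7, 12.9 and 12.7 CPM and differed by log2 1.04 ± 0.16. Several BMP targets fell with Samul-tang and had values near 0 with Sagunja-tang. ID3 changed by -0.86 against 0.08 (difference -0.94 ± 0.14, adjusted p = 4.64e-05), and ID2, ID4 and ATOH8 also differed. SAMD11, a nuclear protein with a SAM domain, went from 74.8, 76.0 and 75.9 to 42.9, 37.2 and 39.4 CPM and changed by -0.92 against 0.04.

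Against Palmul-tang the dose change differed in 22 genes (0.124%), 13 with the larger (0.0735%) and 9 with the smaller value (0.0509%) in Samul-tang, with 4.89% at an unadjusted p below 0.05. In 16 of these the sign was shared and the change was smaller in Samul-tang. ID3 changed by log2 -0.86 in Samul-tang and -1.58 in Palmul-tang (difference 0.72, adjusted p = 0.018), and ID2 by -0.79 and -1.57. TRIB3 (0.18 and 0.90), ASNS (0.20 and 0.64) and DDIT3 (0.05 and 0.66) differed as well, and these 3 genes also differed from Sagunja-tang, where they changed by 0.61, 0.59 and 0.57. For the lipid genes DHCR7 (-0.34 and -0.13) and SCD (-0.65 and -0.30) no difference from Palmul-tang was called. ANGPTL4 changed by 1.53 and 1.66.

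**Figure D5:**
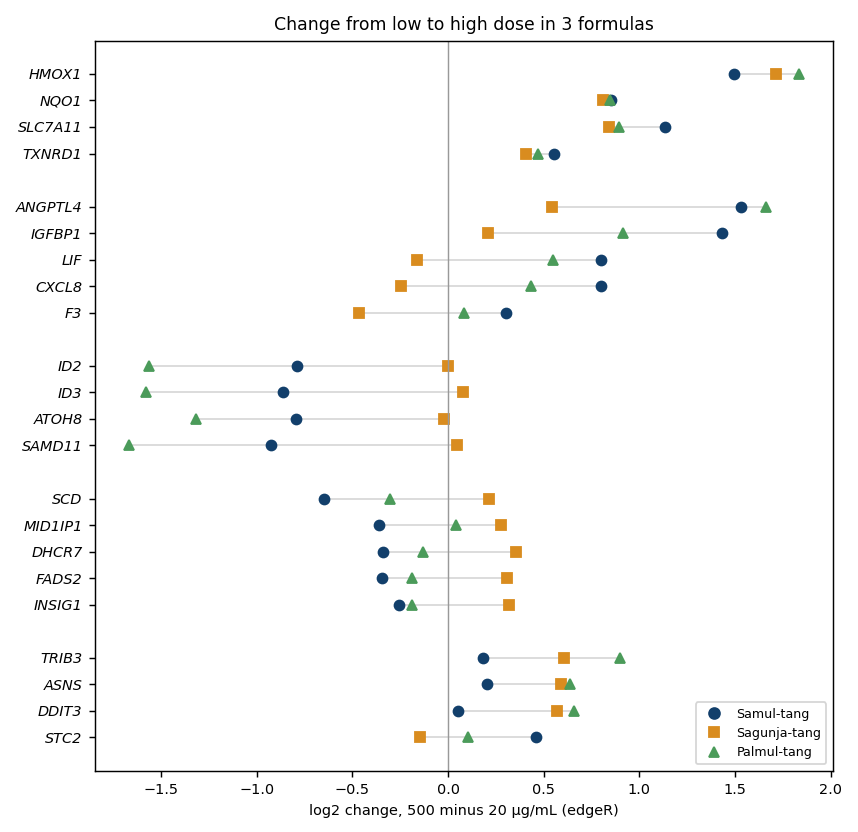
Log2 change from 20 to 500 µg/mL (edgeR) of 22 genes in Samul-tang (circles), Sagunja-tang (squares) and Palmul-tang (triangles), with genes grouped by role from NRF2 targets at the top to amino acid response genes at the bottom. HMOX1, NQO1, SLC7A11 and TXNRD1 lie above 0.4 in all 3 formulas, ID2, ID3, ATOH8 and SAMD11 spread from near 0 in Sagunja-tang to below -1.3 in Palmul-tang, and the lipid genes lie on opposite sides of 0 in Samul-tang and Sagunja-tang.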

How the data were processed

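RNA-seq libraries of SW1783 cells were read from 1 table of expected counts per gene, which the authors deposited for 60675 genes. Per the submitters' processing notes reads went through RSEM 1.3.3, STAR 2.7.3a, Trim Galore 0.6.5 and FastQC 0.11.9, listed with no role or order, with build hg38. The annotation release and the strand setting of the counting are not given in the sources used here, so reads of overlapping or antisense genes may not be separated. Of the values 90.8% were whole (within 1e-09) and the others were rounded, and 219 columns that belong to no sample here were not used. Positions are on GRCh38.

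The 57 libraries of 19 groups with 3 libraries each (3 groups of 1 library were left out) were fitted together with edgeR 4.0.16 (R 4.3.3): filterByExpr, TMM, quasi-likelihood test, 1 mean per group and Benjamini-Hochberg adjustment over 17676 genes. SE is the log2 difference divided by the square root of F. Differences between formulas were tested as interactions. DESeq2 1.42.0, other scalings and filters, other sets of libraries, a replicate block and leaving out each library were the alternatives. The fit was also run on data simulated with its own estimate of the spread. Such data cannot tell if that spread suits the Samul-tang libraries.

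The compared libraries and the 40 gene lists were chosen with earlier results of these data known, so a list's count is no independent evidence. Genes named are the 12 largest rises and 12 largest falls among calls (mean of 5 CPM or more, high and low not overlapping, unnamed genes left out), up to 4 called members of each list by adjusted p, the 5 largest differences each way from each other formula, ANGPTL4, IGFBP1, CYP1B1, SLC7A11, ID3 and HMOX1, and members of the AhR, ID, SMAD and IGFBP families, 85 in all, of which some are not reported here. Other genes named here and in the closing section, such as FTL, ABCC2, IL6, BAMBI and the uncalled list members, were chosen after their values were seen. Promoter sequences come from RefSeq.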

Additional observations from a re-analysis of the deposited data

Results flagged for a closer look

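The change from the low to the high dose differed between Samul-tang and Sagunja-tang in 218 genes by the test of the difference itself (edgeR, adjusted p below 0.05). Values given here are the log2 change of Samul-tang minus that of the other formula, for named genes. The value was larger in Samul-tang for IGFBP1 (1.22), CXCL8 (1.05), NPTX1 (1.04), ANGPTL4 (0.99), MIR100HG (0.98), LIF (0.96), F3 (0.77) and ADAMTS1 (0.70). Further genes with larger values were PDE3A (0.62), STC2 (0.60), EGR1 (0.59), NDRG1 (0.55), IGFBP5 (0.45), GREM1 (0.43), PHLDA1 (0.33), ALDH1A3 (0.33) and COL8A1 (0.28). The values were smaller in Samul-tang for DHRS3 (-1.04), ID4 (-1.02), SAMD11 (-0.97), ID3 (-0.94), FYB1 (-0.89), SCD (-0.86), ID2 (-0.79), ATOH8 (-0.77), PADI2 (-0.73) and CSF1R (-0.73). They were also smaller for DHCR7 (-0.69), MT1X (-0.68), SREBF1 (-0.66), FADS2 (-0.66), MT1E (-0.64), MID1IP1 (-0.64), INSIG1 (-0.57), DDIT3 (-0.52), TRIB3 (-0.42) and ASNS (-0.39).

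Against Palmul-tang the change differed in 22 genes. The value was larger in Samul-tang, mostly a smaller fall, for ID2 (0.77), ID3 (0.72), PDE3A (0.69), MIR100HG (0.63) and COL8A1 (0.29). It was smaller in Samul-tang for FYB1 (-0.85), CLMN (-0.75), TRIB3 (-0.71), DDIT3 (-0.60) and ASNS (-0.43). All 9 libraries of Palmul-tang carry another first number in their label code than those of Samul-tang, and formula and code cannot be told apart in these values.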

How the results depend on the processing

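Each alternative was run on the comparisons whose libraries it touches, 5 at most. The call count of high against low dose, 249, stayed within 1.5 times under other scalings, filters and DESeq2 (240 to 328), though with no filter on low counts only 161 of the 249 genes were among the 267 called, and was 822 in the Samul-tang libraries alone and 1104 without both Astragali Radix libraries that stand apart. Medium against low, 1 gene, gave 53 with no filter, 8 in those libraries alone and 13 without the Astragali Radix libraries. High against medium, 97, gave 153, 370 and 516. The difference from Sagunja-tang, 218, gave 1089 in both formulas alone and 1169 without the Astragali Radix libraries. The difference from Palmul-tang, 22, gave 92 with no filter, 48 with DESeq2, 281 alone and 328 without the Astragali Radix libraries. Leaving out 1 library at a time gave 157 to 183 for high against low, 0 to 1 for medium against low, 50 to 59 for high against medium, 131 to 173 against Sagunja-tang and 5 to 29 against Palmul-tang. The count moved by over 1.5 times without high replicate 2 or low replicate 1 (high against low), without any of the 6 libraries (high against medium), without Samul-tang high 1, high 2, low 2 or low 3 or Sagunja-tang high 3 or low 2 (Sagunja-tang), and without any library but Samul-tang low 2 and Palmul-tang high 2 and low 2 (Palmul-tang). The cause of these shifts was not tested. With the replicate number as a block 267 genes were called for high against low, 1 for medium against low, 102 for high against medium, and 226 and 22 against the other formulas. Same-numbered Samul-tang libraries deviated from their group means with a median r of 0.019, and 0 of 9 pairs exceeded 0.1, so the numbers were not taken to pair them. Of 85 named genes 68 were called, 50 of them in every setting, 18 lost the call in at least 1 setting, 3 gained it (AHRR, ID1 and IGFBP3) and 0 reversed. Depth limits ALDH3A1 (6 to 47 counts per library), PDK4 (10 to 46) and CYP1A1 (24 to 58).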

Other observations

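Several further genes, chosen after their values were seen, changed from the low to the high dose of Samul-tang. Called falls included the keratin genes KRT7, KRT18, KRT80 and KRT81, whose products are filament proteins typical of epithelia. They were picked from a larger family whose tested members were not counted. Of all 17676 genes tested 117 (0.662%) were called lower. KRT7 went from a mean of 511 to 352 CPM (log2 -0.54 ± 0.13), KRT18 from 169 to 125 CPM (-0.44 ± 0.11), KRT80 from 33.9 to 23.6 CPM (-0.52 ± 0.07) and KRT81 from 82.6 to 60.6 CPM (-0.45 ± 0.12). KRT8 (log2 -0.24), KRT17 (0.79) and KRT19 (0.47) were not called. KRT81 lay at the edge of the threshold (edgeR adjusted p = 0.04997). Of the called keratin genes named here only KRT80 had a called difference from Sagunja-tang, where it changed by log2 0.08. Of 8 epithelial markers 5 had a median under 1 CPM, EPCAM and CDH1 among them, and the sum of all 8 was 181 to 203 CPM at the low and 134 to 151 CPM at the high dose, mostly KRT18. The part of other cells in these values was not tested, and the call of KRT18 was lost in 4 of 14 settings.

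Among selenoprotein genes SELENOW fell from 65.5 to 39.8 CPM and GPX1, a glutathione peroxidase, from 183 to 129 CPM (log2 -0.50 ± 0.12, adjusted p = 0.0146), while TXNRD1 rose, and GPX4, which protects lipids from peroxidation, was not called at log2 -0.20 ± 0.11. Of the genes for membrane exporters, ABCG2 went from 38.8 to 56.9 CPM (log2 0.55 ± 0.07), ABCC3 from 88.5 to 114 CPM (0.37 ± 0.07) and ABCC2 as given above, while ABCC1 (0.05), ABCC4 (-0.02) and ABCC5 (0.02) were not called. ALAS1, the first enzyme of heme synthesis, rose by log2 0.40 ± 0.05 and SLC48A1, a heme transporter, by 0.38 ± 0.06, beside the heme-degrading HMOX1. The growth factor genes HGF (log2 0.43 ± 0.07) and ANGPT1 (0.60 ± 0.14) rose and PGF fell (log2 -0.80 ± 0.18).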
